A study of Mus musculus with 2 samples.

Results

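The RNA of 9 auxiliary subunits of the AMPA-type glutamate receptor was measured in CR cells of the mouse hippocampus at P14. The 9 genes were *Cacng2*, *Cacng3*, *Cacng4* and *Cacng8* (type I TARPs), *Cacng5* and *Cacng7* (type II TARPs), the cornichons *Cnih2* and *Cnih3*, and *Shisa9*, found by symbol among 32285 features. They were read in barcodes with at least 2000 unique molecular identifiers (UMIs, each counting 1 captured RNA molecule) and at least 5 UMIs of *Reln*, the gene for the secreted protein reelin that marks CR cells. This left 1003 of 1011 barcodes of that depth in the control library and 390 of 406 in the knockout library. The control library pooled 4 *ΔNp73-Cre; Cic* flox/+; *tdT* mice, 3 male and 1 female. The knockout library came from 4 littermates, 2 male and 2 female, that were *ΔNp73-Cre; Cic* flox/flox; *tdT*. Both groups therefore carry the Cre, which is active in the *ΔNp73* lineage, at least 1 floxed allele of the transcriptional repressor *Cic* and the tdTomato reporter, and the controls are heterozygous rather than wildtype. Live tdTomato-positive cells were sorted and each pool gave 1 library, so mice of the same sex cannot be separated. No value between the genotypes has a replicate check, and no test was made. The cells were chosen by their measured UMIs, the classes by measured *Cck*, *Grik1*, *Chst8* and *Alkal2* UMIs, and the 9 genes with earlier results of these data known, so all values below are descriptions.

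AMPA receptors are tetramers of GluA subunits that open within a fraction of a millisecond of glutamate binding. TARPs, cornichons and the CKAMP proteins are membrane proteins that join the tetramer, help it leave the endoplasmic reticulum and reach the synapse, and slow or speed its closing and desensitization. The same pore subunits can thus give currents of different size and duration according to the auxiliary subunits a neuron makes.

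*Cacng5* and *Cnih2* are members with at least 100 UMIs in the control whose levels differed by over 1.5-fold between kinds of CR cell in what follows, and the 250 bases before their RefSeq start sites (GRCm38.p6) are shown for that reason. Both lie on the minus strand, *Cacng5* at chr11:107915056-107915305 and *Cnih2* at chr19:5098522-5098771. Capitals mark the CG dinucleotides.
Cacng5: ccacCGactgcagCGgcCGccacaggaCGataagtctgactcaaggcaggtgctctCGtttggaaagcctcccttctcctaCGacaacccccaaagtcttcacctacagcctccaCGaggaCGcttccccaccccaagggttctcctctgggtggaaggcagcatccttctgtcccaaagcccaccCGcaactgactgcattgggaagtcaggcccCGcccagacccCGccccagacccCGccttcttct
Cnih2: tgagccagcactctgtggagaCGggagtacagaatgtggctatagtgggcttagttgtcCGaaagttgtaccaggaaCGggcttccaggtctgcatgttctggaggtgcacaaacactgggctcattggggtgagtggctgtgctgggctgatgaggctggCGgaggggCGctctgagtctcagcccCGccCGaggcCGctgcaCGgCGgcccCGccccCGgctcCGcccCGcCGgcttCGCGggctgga
The *Cacng5* window held 12 CG dinucleotides and the *Cnih2* window 17, and 68.5% and 78.3% of 32851 RefSeq windows of the same length held no more. *Cacng5* has a further RefSeq start whose window, at chr11:107911363-107911612, held 2. *Cacng2* also differed by over 1.5-fold in a control comparison below, and its window, which is not shown, held 16. CIC, the repressor deleted here, binds the octamers TGAATGAA and TGAATGGA. Neither octamer was found on either strand in the 8 windows of the 7 members with an entry, while 1.30% and 1.21% of all windows held one. At shares this low, 8 windows would mostly hold none. The search therefore says nothing on whether CIC binds at these genes.

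Control cells had a median of 6224 UMIs (2012 to 31769) and knockout cells one of 6664 (2769 to 33453), from matrices of 16336796 and 6777071 UMIs. In both libraries 7 of the 8 listed marker genes of CR cells were detected in 25% of cells or more, with *Ebf2* as the exception (2.99% of control cells). Of 7 markers of GABAergic neurons, *Lhx6*, *Sst* and *Vip* were at 0 in both libraries, and the list summed to 2.88 CPM in control and 1.81 CPM in knockout cells, led by *Pvalb* with 12 and 3 UMIs. The 7 markers of granule and pyramidal neurons summed to 57.9 and 64.7 CPM, of which *Fibcd1* gave 46.4 CPM (in 21.8% of cells) and 47.7 CPM (23.3%) and *Prox1* 6.66 and 7.23 CPM, while *Neurod6* was at 0 in both. The 7 astrocyte markers summed to 156 and 144 CPM, nearly all from *Slc1a2* (92.7 and 83.2 CPM) and *Atp1b2* (53.3 and 55.3 CPM), with *Aqp4*, *Gja1*, *Slc1a3*, *Aldoc* and *Gfap* at 5.15 CPM or less. Among oligodendrocyte precursor markers *Cspg4* was at 60.0 and 77.7 CPM and *Pdgfra*, *Olig1* and *Olig2* had 4 UMIs or fewer. The lists of oligodendrocytes, microglia and endothelial cells summed to between 23.0 and 36.8 CPM in control cells and between 29.3 and 31.8 CPM in the knockout. The part of these markers in the results was not tested. No cell barcode was shared by the libraries. *Cic* itself was at 58.9 CPM in control cells and 51.3 CPM in the knockout, a ratio of 0.871 (0.714 to 1.06). The position of the floxed part is not given in the sources used here, so this 3′ count checks nothing about the deletion. By staining, the paper found CIC deleted from most but not all hippocampal CR cells of this line. The knockout library can therefore hold cells that kept CIC, and its values average over them. Levels are CPM, counts scaled to 1000000 of the UMIs outside mitochondrial (mt-) and ribosomal (Rpl, Rps, Mrp) genes, summed over cells. Intervals are exact 95% intervals and cover counting error only.

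Among the type I TARPs 1 gene prevailed. *Cacng2*, which encodes stargazin, the first TARP described, had 374 UMIs in control cells and 154 in knockout cells. Its level was 56.7 CPM (51.1 to 62.7) in control cells and 55.7 CPM (47.2 to 65.2) in the knockout. *Cacng8*, which encodes TARP γ-8, the TARP known for its abundance in hippocampal pyramidal neurons, had 81 and 17 UMIs, or 12.3 CPM (9.74 to 15.2) and 6.15 CPM (3.58 to 9.84). Stargazin RNA was thus the main type I transcript in both libraries. *Cacng4* (γ-4) was at 2.58 CPM in control cells and 5.78 CPM in the knockout, on 17 and 16 UMIs. *Cacng3* (γ-3) had 1 UMI in the control, and 0 of 390 knockout cells held one, which allows a share of up to 0.769% (3 counts of the total). That is a limit on cells with a UMI at this depth, not on cells with the RNA.

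Both type II TARPs were present. *Cacng7* (γ-7) was at 56.3 CPM (50.8 to 62.4) in control cells and 57.1 CPM (48.6 to 66.8) in the knockout, on 372 and 158 UMIs. *Cacng5* (γ-5) was at 33.9 CPM (29.6 to 38.7) and 33.3 CPM (26.8 to 40.8), on 224 and 92 UMIs. Among the cornichons, which promote export of the receptor and slow its kinetics, *Cnih2* was at 58.8 CPM (53.1 to 64.9) in control cells and 61.1 CPM (52.2 to 71.0) in the knockout. *Cnih3* was at 1.21 and 1.81 CPM, on 8 and 5 UMIs. *Shisa9*, which encodes CKAMP44, a protein that strengthens receptor desensitization, had 4 UMIs in each library, or 0.606 and 1.45 CPM.

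Over all cells of each library *Cnih2*, *Cacng2* and *Cacng7* led with overlapping intervals, and *Cacng5* stood below them and above *Cacng8*. *Cnih3*, *Shisa9* and *Cacng3* were near 0. The place of *Cnih2* rests in part on a small group of cells with high respiratory genes, described below. *Cacng4* was below *Cacng8* in the control, and in the knockout their intervals overlapped. The protocol counts each molecule from its 3′ end, so levels were not divided by gene length. The pore subunits were far more abundant, with *Gria1*, *Gria2* and *Gria4* at 835, 964 and 982 CPM in control cells and 800, 1001 and 1060 CPM in knockout cells, and *Gria3* at 3.94 and 2.53 CPM.

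At these levels most cells showed no UMI of any 1 member. A *Cacng7* UMI was found in 27.2% of control cells (24.5 to 30.1) and 28.5% of knockout cells (24.0 to 33.2). For *Cacng2* the shares were 26.0% and 27.4%, for *Cnih2* 26.0% and 29.2%, for *Cacng5* 16.4% in both, and for *Cacng8* 6.58% and 3.85%. With each cell thinned to 2000 UMIs, no cell being left out, the *Cacng7* shares were 10.1% and 9.49% and the *Cacng5* shares 5.98% and 6.41%. At full depth 32.2% of control cells and 30.8% of knockout cells had no UMI of any of the 9 genes, and 1 cell in each library had a UMI of 5 of them. A cell without a UMI is therefore not shown to lack the RNA.

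Droplets of 20 to 100 UMIs, which hold mostly free RNA, gave a background. In the 29040 control and 75813 knockout droplets *Cnih2* was at 113 and 109 CPM, above its level in cells in both libraries. *Cacng2* was at 66.6 and 74.4 CPM and *Cacng7* at 63.3 and 72.7 CPM, with intervals that overlapped those of the cells in both libraries. *Cacng5* went the other way, at 7.34 CPM (4.20 to 11.9) and 7.90 CPM (5.06 to 11.8) in droplets against 33.9 and 33.3 CPM in cells. Droplets had medians of 89 and 44 UMIs and cells far more. At the depth of these droplets, the largest estimated share of free RNA in a main member's UMIs in cells was 2.19% (*Cnih2* in the control). Barcodes just above 100 UMIs do not enter this estimate, so it is not an upper limit. Barcodes of at least 2000 UMIs with under 5 *Reln* UMIs, 8 control and 16 knockout ones, held 1 *Cacng7* UMI in control cells and 6 *Cnih2*, 8 *Shisa9* and 1 *Cacng4* UMIs in the knockout. All 8 *Shisa9* UMIs came from 1 barcode, against 4 in all 390 knockout CR cells.

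**Figure D1:**
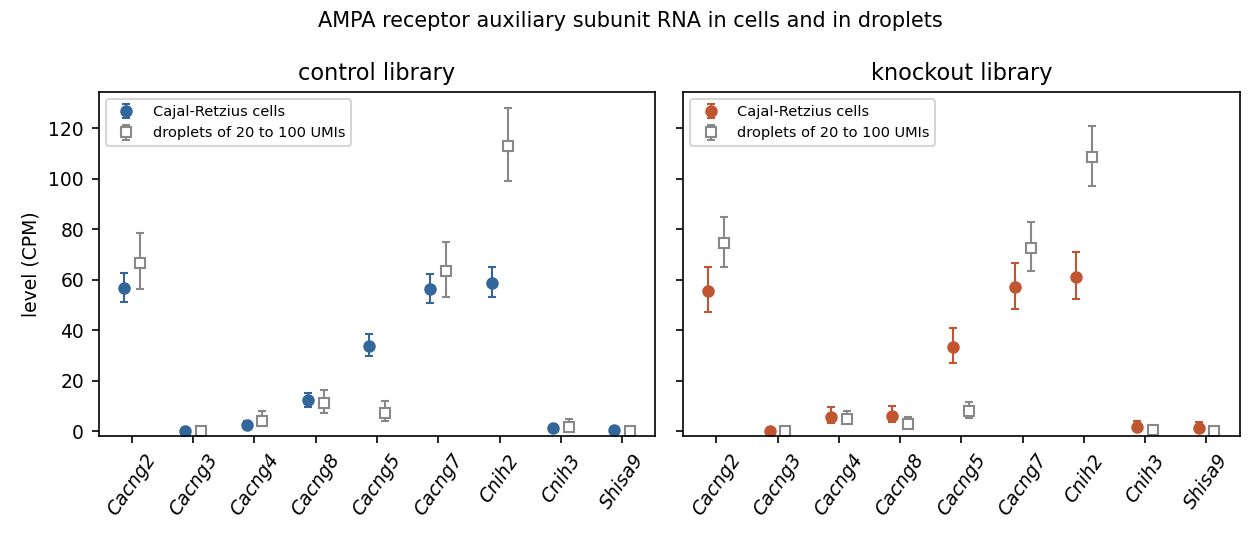
Level of each member in CPM (vertical axis) in CR cells (filled circles) and in droplets of 20 to 100 UMIs (open squares), by library, with exact 95% counting intervals as bars. *Cacng5* is at 33.9 and 33.3 CPM in cells and at 7.34 and 7.90 CPM in droplets, while *Cnih2* is higher in droplets.

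Between the genotypes the main members differed little. The summed level of the 9 genes was 223 CPM in control cells and 222 CPM in the knockout, a ratio of 0.999 (0.908 to 1.10). The ratio of knockout to control was 0.983 (0.809 to 1.19) for *Cacng2*, 0.980 (0.760 to 1.25) for *Cacng5*, 1.01 (0.836 to 1.22) for *Cacng7* and 1.04 (0.863 to 1.25) for *Cnih2*. These intervals leave out a change of 1.5-fold in either direction, as far as counting error goes. With a fold of 1.5 as the threshold and a minimum of 100 UMIs in both groups together, 0 of the 4 members measured at that depth were past it, where 4.40% of 9442 genes were. The median ratio was 0.998 over these 4 members and 1.00 over all those genes.

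*Cacng8* and *Cacng4* were the members whose intervals did not include 1, both under the minimum of 100 UMIs. *Cacng8* was at 0.501 of its control level (0.278 to 0.852) on 98 UMIs. A single control cell held 10 of its 81 UMIs, and without the cell with the most *Cacng8* UMIs in each library the ratio was 0.506. It was 0.558 in cells called male and 0.360 in cells called female. A cell was called by *Xist* or Y-linked UMIs (702 male and 227 female control cells, 194 and 176 in the knockout). The control cell with 10 *Cacng8* UMIs was called female, and cells called female held 26 *Cacng8* UMIs in the control. The control pool held 1 female mouse, so female control cells here and below stand for that animal. *Cacng8* in droplets was also lower in the knockout, at 2.96 CPM (1.35 to 5.62) against 11.02 CPM (7.06 to 16.4) in the control, and the ratio in cells with free RNA subtracted was 0.502. *Cacng4* was 2.25 times its control level (1.06 to 4.73) on 33 UMIs, and 2.19 and 1.51 in male and female cells. With the minimum lowered to 30 UMIs, where 10.5% of 12421 genes were past the fold, 2 of 6 members were, *Cacng4* higher and *Cacng8* lower. *Cacng8* overlaps the antisense gene *Gm44151* and *Cacng4* the opposite-strand gene *Gm11650*, and whether strand was used in counting is not given in the sources used here.

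**Figure D2:**
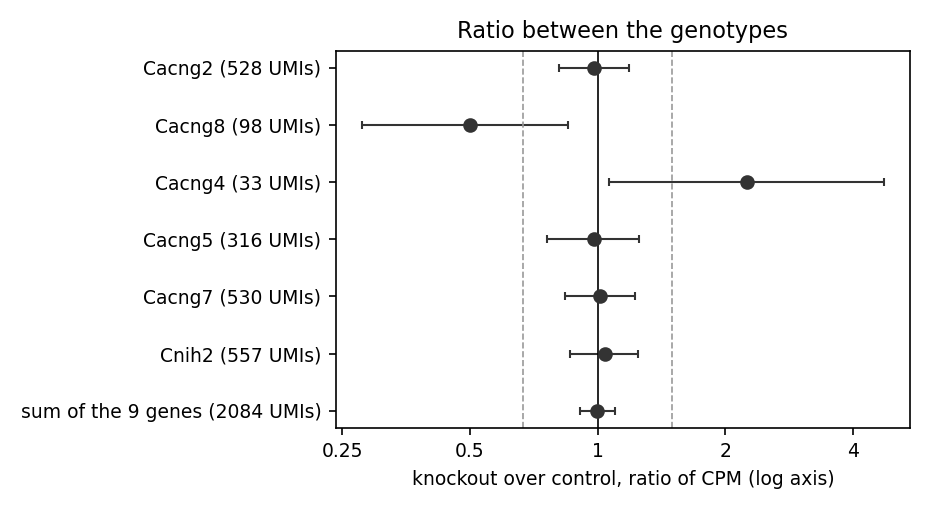
Ratio of knockout to control CPM on a log axis for the members with at least 30 UMIs and for the sum of the 9 genes, with exact 95% counting intervals, a solid line at 1 and dashed lines at a fold of 1.5 in either direction. The 4 members with at least 100 UMIs lie between 0.980 and 1.04, with *Cacng8* at 0.501 and *Cacng4* at 2.25.

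*Cacng5* differed between kinds of CR cell in the same direction in both libraries. CR cells were split by a UMI of *Cck*, a neuropeptide gene, into 324 positive and 679 negative control cells and 110 positive and 280 negative knockout cells. In the control *Cacng5* was at 54.2 CPM in *Cck*-positive cells (124 UMIs) and 23.2 CPM in *Cck*-negative cells (100 UMIs), a ratio of 2.34 (1.78 to 3.07). In the knockout it was at 62.8 CPM (50 UMIs) and 21.3 CPM (42 UMIs), a ratio of 2.95 (1.92 to 4.55). The direction was the same in male and in female cells of each library, from 2.03 in male to 5.18 in female knockout cells. Median depths were 6397 and 6148 UMIs in positive and negative control cells, and with cells thinned to 2000 UMIs and positivity called again the ratio was 2.10 on 65 UMIs in control cells and 1.30 on 28 UMIs in the knockout.

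By a UMI of *Grik1*, a kainate receptor subunit, *Cacng5* went in the opposite direction. It was at 15.2 CPM in the 194 *Grik1*-positive control cells (21 UMIs) and 38.9 CPM in the 809 negative ones, a ratio of 0.392 (0.238 to 0.616). In the knockout it was at 13.1 CPM in 70 positive cells (7 UMIs) and 38.1 CPM in 320 negative ones, a ratio of 0.342 (0.134 to 0.736). The control ratio was 0.455 in male cells and 0.0856 in female cells. Those male cells held 163 *Cacng5* UMIs in all and the female cells, from 1 mouse, 46, so the female ratio rests on few counts. By a UMI of *Chst8* or *Alkal2*, read as 1 class, the ratio was 0.764 (0.538 to 1.06) in control cells and 0.735 (0.424 to 1.22) in the knockout, both with intervals that include 1.

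Since the *Cck* and *Grik1* classes share cells, *Cacng5* was also read in 4 groups that do not. In the control it was at 58.4 CPM (48.0 to 70.3) in 277 cells with *Cck* only, 27.7 CPM (22.3 to 34.0) in 532 cells with neither, 33.6 CPM (17.9 to 57.5) in 47 cells with both and 8.07 CPM (3.48 to 15.9) in 147 cells with *Grik1* only. In the knockout the same groups, of 96, 224, 14 and 56 cells, were at 68.1 CPM (50.1 to 90.6), 24.7 CPM (17.5 to 33.9), 28.4 CPM (5.86 to 83.0) and 9.29 CPM (2.53 to 23.8). Both libraries gave the same order, with the groups of *Cck* only, neither and *Grik1* only separated by their counting intervals in the control. In the knockout the interval of *Grik1* only overlapped that of neither. In both libraries, *Cacng5* in cells with *Grik1* only was within the interval of its droplet level.

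**Figure D3:**
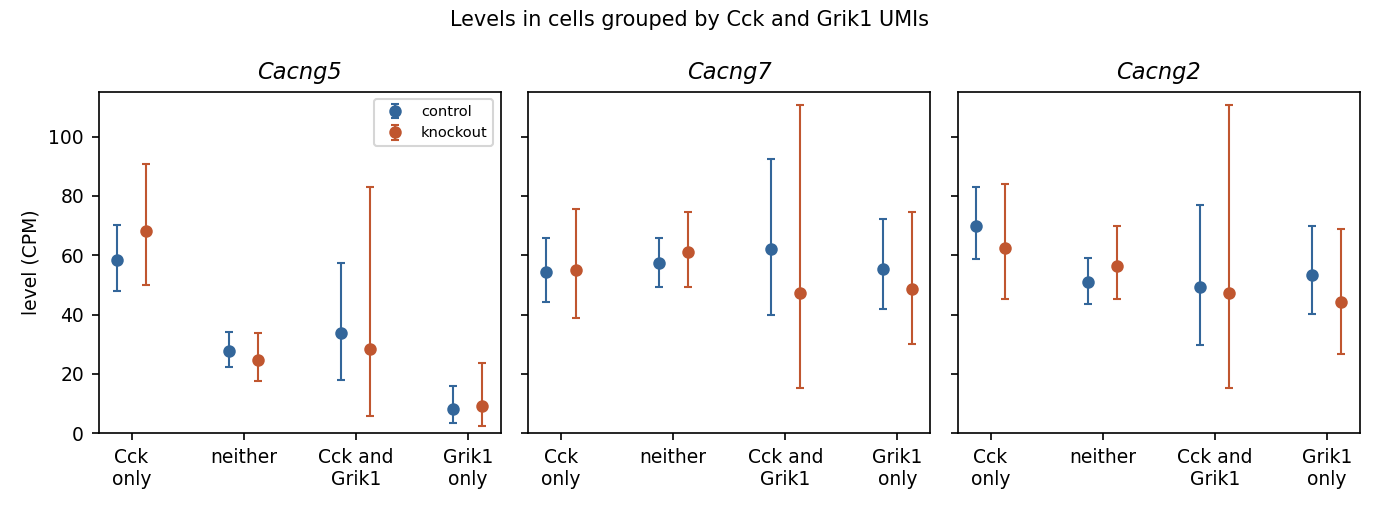
Level in CPM of *Cacng5*, *Cacng7* and *Cacng2* in cells with a UMI of *Cck* only, of neither gene, of both or of *Grik1* only, for control and knockout libraries, with exact 95% counting intervals. *Cacng5* spans 8.07 to 58.4 CPM in control cells and 9.29 to 68.1 CPM in the knockout, while every interval of *Cacng7* overlaps the others.

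With all UMIs, the other main members stayed closer to even. *Cacng7*, the other type II TARP, had ratios of 0.977 and 0.926 by *Cck*, 1.02 and 0.819 by *Grik1* and 1.10 and 1.19 by *Chst8* or *Alkal2*, control first, and all 6 intervals include 1. *Cacng2* was at 66.4 CPM in *Cck*-positive and 51.5 CPM in *Cck*-negative control cells, a ratio of 1.29 (1.04 to 1.59), with 1.12 (0.780 to 1.59) in the knockout. By *Chst8* or *Alkal2* it was at 44.7 and 60.6 CPM in the control, a ratio of 0.737 (0.563 to 0.955), and the knockout ratio was 1.06 (0.728 to 1.51). *Cnih2* had a ratio of 0.670 (0.450 to 0.975) by *Cck* in the knockout, from 45.3 and 67.5 CPM, and 0.950 (0.763 to 1.18) in the control. None of these members was past 1.5-fold in these comparisons at full depth, though *Cnih2* by *Cck* in the knockout was only just within it. All 3 passed it in some comparisons when cells were thinned to 2000 UMIs and positivity was called again. The *Cacng7* ratio by *Cck* was then 0.530 in the control (109 UMIs) and 0.315 in the knockout (40 UMIs), where it was 0.589 by *Grik1* and 1.67 by *Chst8* or *Alkal2*. That of *Cacng2* by *Chst8* or *Alkal2* was 0.440 and 0.357, control first, and thinned *Grik1*-positive knockout cells held 0 of its 46 UMIs. That of *Cnih2* was 1.57 by *Grik1* in the control and 0.164 by *Chst8* or *Alkal2* in the knockout. With all UMIs these were 1.14 (0.894 to 1.45) and 0.903 (0.623 to 1.29). Thinned, 44 of the 390 knockout cells held a *Cnih2* UMI, so the value of 0.164 rests on few counts. In cells of 1 sex, *Cnih2* by *Grik1* was at 0.589 in female control cells and 0.476 in male knockout cells, and by *Cck* at 0.642 and 0.629 in female and male knockout cells. *Cacng7* was at 0.464 by *Grik1* and 1.81 by *Chst8* or *Alkal2* in female knockout cells, and *Cacng2* by *Cck* at 1.68 and 1.51 in female cells, control first. The ratios in cells of 1 sex rest on fewer counts and are given without intervals.

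*Cacng8* had too few UMIs for a stable ratio by class. By *Grik1* it was at 18.1 CPM in positive and 10.7 CPM in negative control cells, a ratio of 1.69 (1.01 to 2.76), but the cell with 10 *Cacng8* UMIs was among the positive ones, and without the top cell of each group the ratio was 1.10. The knockout ratio was 0.260 (0.00620 to 1.67), on 1 UMI in positive cells. By *Chst8* or *Alkal2* the ratios were 0.581 (0.294 to 1.06) and 2.98 (1.02 to 8.86).

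Counted with the same fold and minimum, *Cacng5* was the 1 member of 4 past the fold by *Cck* in the control (5.06% of 8303 genes were) and by *Grik1* in the control (6.82%). By *Chst8* or *Alkal2*, 0 of 4 members were past it (6.40%). In the knockout *Cacng5*, with 92 UMIs, was under the minimum. There 0 of 3 members were past the fold by *Cck* (8.25% of 5225 genes), by *Grik1* (7.92%) or by *Chst8* or *Alkal2* (8.06%). The summed level of the 9 genes was 1.17 times as high in *Cck*-positive control cells (1.05 to 1.30) and 0.713 times as high in *Grik1*-positive knockout cells (0.563 to 0.893), and the intervals of the 4 other summed ratios included 1. Within each class and outside it, the ratio of knockout to control for *Cacng5* lay between 0.856 and 1.16, with intervals that include 1.

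**Figure D4:**
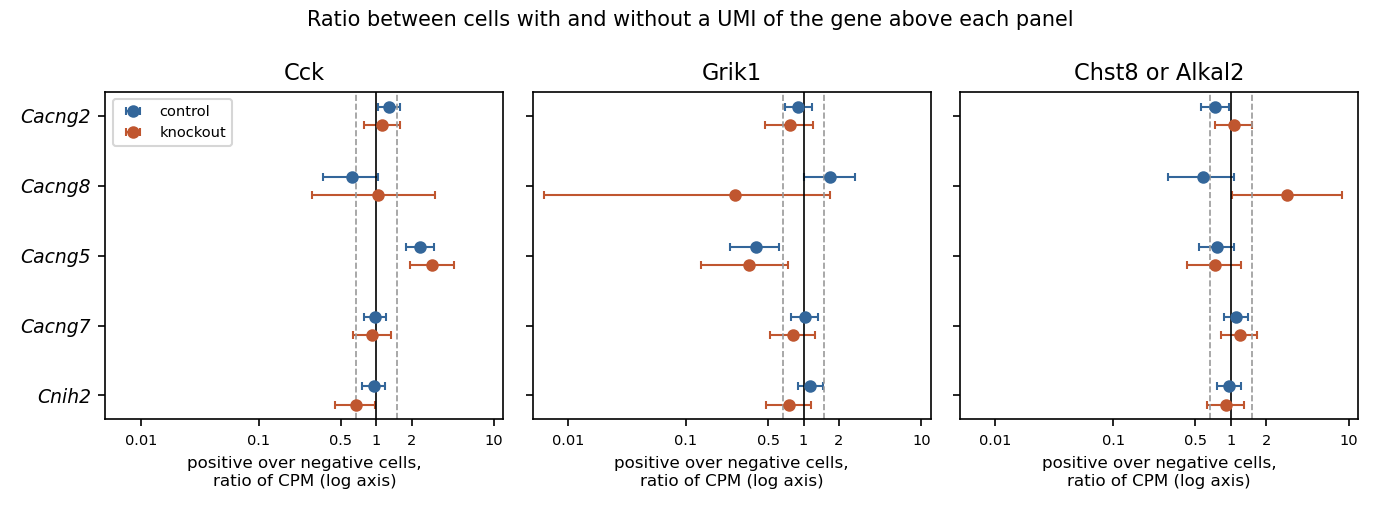
Ratio of CPM in positive over negative cells on a log axis for the 5 members with the most UMIs, by *Cck*, by *Grik1* and by *Chst8* or *Alkal2*, in control and knockout libraries, with exact 95% counting intervals, a solid line at 1 and dashed lines at a fold of 1.5. *Cacng5* lies at 2.34 and 2.95 by *Cck* and at 0.392 and 0.342 by *Grik1*, and the wide intervals are those of *Cacng8*.

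*Cnih2* differed by another property of the cells. In 78 control and 29 knockout cells, nuclear respiratory genes took at least 2% of the UMIs used for CPM, a contrast added after the data were seen. These were 98 genes with symbols starting Nduf, Uqcr, Sdh, Atp5 or Cox4 to Cox8. No other cut is given here, and 52 control and 20 knockout cells lay between 1.5% and 2.5%. The respiratory-high cells had medians of 13556 and 14508 UMIs, against 6065 and 6410 in the others. They had 7 of the 8 CR markers in at least 25% of cells. Their CR markers summed to 8436.2 and 8580.2 CPM, control first, against 10419.7 and 10177.5 CPM in the others. *Reln* was at 5667 and 5413 CPM, against 8568 and 8282 CPM. In both libraries 2 astrocyte markers and *Cspg4* also reached 25% of these cells, as did 1 granule and pyramidal marker in the control. In the others 1 and 2 astrocyte markers and *Cspg4* did. *Cnih2* was at 171 CPM (145 to 201) in the respiratory-high control cells and 41.2 CPM (36.1 to 46.8) in the others, a ratio of 4.16 (3.38 to 5.13). In the knockout it was at 134 CPM (101 to 176) and 48.9 CPM (40.4 to 58.7), a ratio of 2.75 (1.95 to 3.83). Outside the respiratory-high cells, control *Cnih2* was thus below *Cacng7*, which was at 54.5 CPM (48.6 to 60.9). There the *Cnih2* interval overlapped that of *Cacng5* in both libraries, 37.0 CPM (32.1 to 42.3) in the control and 35.4 CPM (28.3 to 43.9) in the knockout. The respiratory-high level of *Cnih2* was above that of droplets in the control, 113 CPM (99.2 to 128), while in the knockout its interval overlapped that of droplets, 109 CPM (97.2 to 121).

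In the control, no other member with at least 100 UMIs shared the size of that difference. In the knockout the ratio intervals of *Cacng2* and *Cnih2* overlapped. *Cacng3*, *Cacng4*, *Cnih3* and *Shisa9* had too few UMIs for this comparison. *Cacng2* was at 96.4 and 50.4 CPM in the control, a ratio of 1.91 (1.484 to 2.44), and 71.0 and 53.1 CPM in the knockout, a ratio of 1.34 (0.853 to 2.02). *Cacng5* was lower in respiratory-high cells, at 14.6 and 37.0 CPM in the control, a ratio of 0.394 (0.206 to 0.689), with 0.572 (0.239 to 1.18) in the knockout. *Cacng7* had ratios of 1.25 (0.937 to 1.66) and 1.02 (0.628 to 1.60). Of the members with at least 100 UMIs, 3 of 4 were past the fold in the control, where 53.2% of 8304 genes were, and 1 of 3 in the knockout, where 49.8% of 5226 genes were, so these cells differed in much of their RNA. Of the related genes listed for context, 1 of 28 was past the fold higher and 12 lower in the control, where 24.8% and 28.4% of all genes were. In the knockout 2 of 24 were higher and 10 lower, where 22.1% and 27.7% of all genes were. The pore subunits *Gria1*, *Gria2* and *Gria4* had ratios between 0.495 and 0.612 in the 2 libraries. *Olfm1* was at 1.98 and 1.63, *Lrrtm4* at 0.329 and 0.425, *Cpt1c* at 0.515 and 0.385, *Porcn* at 0.528 and 0.633, *Dlg2* at 0.621 and 0.578 and *Abhd6* at 0.626 and 0.646, control first. *Shisa7*, *Dlg1*, *Grip1* and *Pick1* were past it lower in the control, and in the knockout *Cnih4* and *Sacm1l* lower and *Frrs1l* higher. The part of depth in these ratios was not tested. At their 3′ ends *Cnih2* and the opposite-strand gene *Yif1a* overlap in the annotation.

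**Figure D5:**
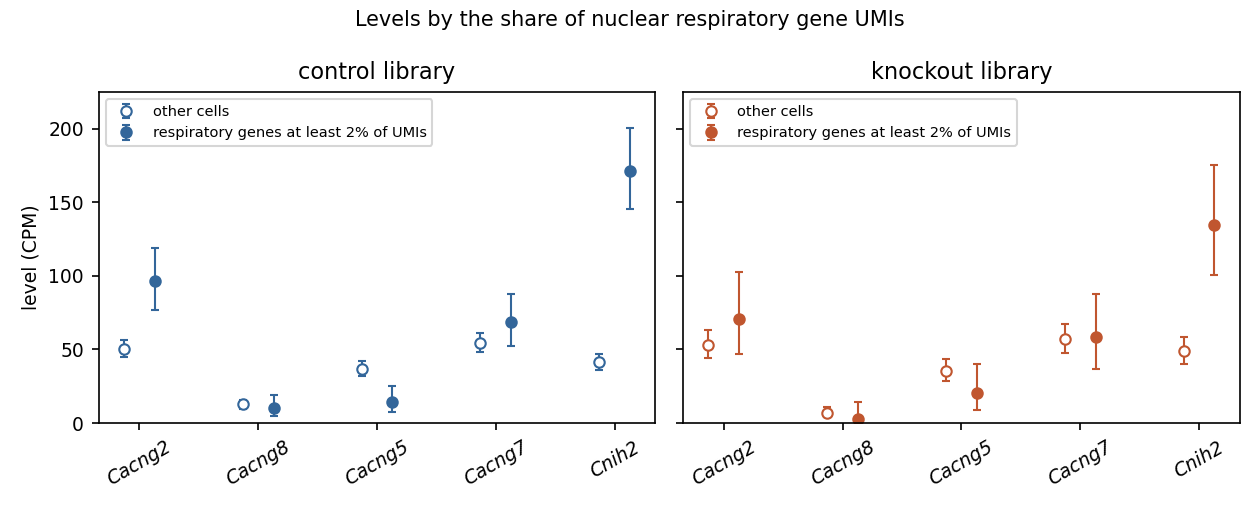
Level in CPM of the 5 members with the most UMIs, by library, with exact 95% counting intervals. Filled points are cells whose nuclear respiratory genes took at least 2% of the UMIs used for CPM, and open points are the other cells. *Cnih2* is at 171 against 41.2 CPM in control cells and at 134 against 48.9 CPM in the knockout, and *Cacng5* is lower in the filled groups.

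Related genes outside the 9 gave a frame for these values. *Cnih1* and *Cnih4*, relatives of the cornichons with wider roles in export, were at 46.5 and 43.2 CPM in control cells and had knockout ratios of 1.04 and 1.07, while *Cacng1*, which encodes the γ subunit of the skeletal muscle calcium channel, and its relative *Cacng6* had 7 and 0 UMIs in all. Among 39 genes for pore subunits, relatives, other receptor partners, assembly, scaffolds and the kainate receptor auxiliary subunits, 32 had at least 100 UMIs, of which 3 were past 1.5-fold higher in the knockout (2.73% of all genes) and 1 lower (1.66%). *Neto1*, a kainate receptor auxiliary subunit, was at 28.5 CPM in control cells and 43.7 CPM in the knockout, a ratio of 1.54 (1.21 to 1.94). *Neto2* was at 11.7 and 19.5 CPM, a ratio of 1.67 (1.16 to 2.40). *Lrrtm4*, a synaptic adhesion gene, was at 412 and 635 CPM, a ratio of 1.54 (1.45 to 1.64), and the pentraxin *Nptx2* at 14.7 and 9.76 CPM, a ratio of 0.664 (0.417 to 1.03).

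By class, 28 of these related genes had at least 100 UMIs in the control and 24 in the knockout. By *Cck*, 2 were past the fold higher and 1 lower in the control (5.06% of all genes in either direction). In the knockout 1 was higher and 2 lower (8.25%). By *Grik1* these counts were 1 and 1 in the control (6.82%) and 1 and 0 in the knockout (7.92%). By *Chst8* or *Alkal2* they were 0 and 2 (6.40%) and 0 and 0 (8.06%). *Neto1* went with *Cck* as *Cacng5* did, at ratios of 1.62 (1.20 to 2.18) in control cells and 3.29 (2.26 to 4.80) in the knockout. *Lrrtm4* went the other way, at 0.516 and 0.557 by *Cck* and 2.06 and 1.70 by *Grik1*. *Frrs1l*, which encodes an assembly factor of the AMPA receptor, had a ratio of 1.54 (1.16 to 2.04) by *Cck* in the control and of 0.692 (0.430 to 1.08) in the knockout. By *Chst8* or *Alkal2* its ratios were 0.475 (0.307 to 0.711) and 0.776 (0.486 to 1.20), and those of *Neto1* 0.532 (0.343 to 0.798) and 1.17 (0.769 to 1.73), control first. *Abhd6* was at 0.716 and 0.597 by *Cck*, and *Nptx1* at 0.665 and 0.871 by *Grik1*. The pore subunits with at least 100 UMIs (*Gria1*, *Gria2* and *Gria4*) were within the fold in all of these comparisons, with median ratios between 0.927 and 1.05.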

How the data were processed

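Single-cell RNA-sequencing (10x Chromium 3′ v3.1) of sorted CR cells gave 1 library per genotype, grouped by the labels. The authors deposited the count of UMIs for every gene and barcode, without normalization or cell calling. The file headers name Cell Ranger 4, the submitters' processing notes Cell Ranger 8.0.1 and mm39, and the methods another version with mm10, so the build is uncertain. The inclusion of intronic reads is not given in the sources used here. Positions are those of GENCODE M21 on GRCm38, matched by Ensembl identifier.

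Barcodes with at least 2000 UMIs and 5 *Reln* UMIs were kept, counts were summed and scaled to CPM, and positive meant at least 1 UMI. Ratios carry exact intervals for 2 Poisson counts and shares exact binomial (Clopper-Pearson) intervals, in Python 3.11.15 with numpy 2.4.6, scipy 1.17.1 and scanpy 1.11.5 (Scrublet). The ratio intervals were tested on simulated Poisson counts and the thinning on simulated cells, and the other steps were not simulated. Real counts can be more uneven between cells than Poisson counts. All 9 members were named, and of the listed related genes those past the fold with at least 100 UMIs. The pore subunits and relatives were named beside them after their values were seen. The members and lists were chosen with earlier results of these data known, so values are descriptions and no p-value was computed. Alternatives covered cell limits, scaling, thinning, doublets (8 and 1 removed), free RNA, sex and the fold. The search for genes with a pattern like that of *Cnih2* is not reported here.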

Additional observations from a re-analysis of the deposited data

Results flagged for a closer look

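*Cacng8* went in opposite directions in the libraries when CR cells were split by other genes. By *Grik1* its ratio in positive over negative cells was 1.69 (1.01 to 2.76) in control cells and 0.260 (0.00620 to 1.67) in the knockout. By *Chst8* or *Alkal2* it was 0.581 (0.294 to 1.06) in control cells and 2.98 (1.02 to 8.86) in the knockout. Neither difference between the libraries was tested, since each genotype is 1 library, and the knockout values rest on 1 and 9 UMIs in positive cells. In the control, the *Grik1* ratio was 0.695 in cells called male and 7.28 in cells called female, and 0.923 with at least 2 *Grik1* UMIs for a positive cell. The single control cell with 10 *Cacng8* UMIs was *Grik1*-positive and called female, so it enters both the 1.69 and the 7.28.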

How the results depend on the processing

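No paired analysis was possible because each genotype has 1 library, which also left no replicate to leave out. Of 555 ratios of single members under the alternatives, 529 moved by less than their counting interval and none called was reversed. Some alternatives could move a ratio little or not at all. Leaving out barcodes shared by the libraries removed no cell, and a minimum of 1 *Reln* UMI kept 1006 control and 395 knockout cells. The count of 529 is therefore not a measure of stability, and the ranges below are given instead. No range is given here for the ratios of respiratory-high over other cells. *Cacng5* by *Cck* ranged from 2.05 to 2.48 in control cells and from 1.30 (thinned, 28 UMIs) to 5.18 (female cells) in the knockout, and was 1.89 there with 2 UMIs for a positive cell. By *Grik1* it ranged from 0.0856 (female, 46 UMIs) to 0.605 (thinned) in control cells and from 0.218 to 0.442 in the knockout. *Cacng8* ranged from 0.310 to 0.558 between the genotypes. Of the main members, *Cacng2* ranged there from 0.808 in female cells to 1.13 in male cells, so its direction turned with sex. *Cacng5* ranged from 0.887 (male cells) to 1.11 (thinned), *Cacng7* from 0.948 (thinned) to 1.08, and *Cnih2* from 1.01 to 1.23 (thinned). Thinned, with positivity called again, the summed ratio was 1.04 (control) and 0.816 (knockout) by *Cck*, 1.16 and 0.536 by *Grik1*, and 0.791 by *Chst8* or *Alkal2* in the knockout, and its direction turned by *Cck* in the knockout, by *Grik1* in the control and by *Chst8* or *Alkal2* in the knockout.

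The number of members past the fold moved with the minimum. Between the genotypes it was 2 at 30 UMIs and 4 with none. At 30 UMIs the shares of all genes past it were 10.5% there, 10.8% and 17.2% by *Cck*, 13.7% and 18.8% by *Grik1* and 12.9% and 17.7% by *Chst8* or *Alkal2*, control first. By *Cck* in the control it was 2 and 5, with 2 at a fold of 1.25 and 0 in female cells. By *Cck* in the knockout it was 1 and 4, with 1 at a fold of 1.25, with 1 *Reln* UMI, scaled to all UMIs, as a mean of cells, without respiratory-high cells or without top cells. By *Grik1* in the control it was 2 and 4, with 0 in female cells. By *Grik1* in the knockout it was 1 and 3, with 2 at a fold of 1.25 and 1 with median absolute deviation limits, as a mean of cells, without respiratory-high cells or with 2 UMIs for positive. By *Chst8* or *Alkal2* it was 1 and 3 in the control, with 2 at a fold of 1.25 and 1 thinned or in male cells, and in the knockout 3 with no minimum and 1 without respiratory-high cells. Apart from the fold and the minimum, the cause was not tested. Members under 100 UMIs are limited by depth. The shares of all genes with no minimum, at a fold of 1.25 or in the other settings are not given here. The counts of members at those settings are therefore not read as results about the members.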
